A study of Homo sapiens with 4 samples.

Results

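The regions described here are 4 multicopy gene families in which deposited m5C peaks recur at repeated positions: the TCEB3C copies, the PRR20 copies (PRR20A and its neighbours), NBPF10, and the C4A and C4B gene pair. Their 5 windows on the hg19 build were chosen by the positions of listed peaks in these same data, so the peak counts, positions and scores below are a description and were not tested. The windows held 29 of the 8919 peaks in both lists together, namely 18 of 3177 in replicate 1 and 11 of 5742 in replicate 2. The RNA was that of PANC-1, a long-established cell line grown from a human pancreatic carcinoma. All 4 samples were of cells exposed beforehand to extracellular vesicles (Evs) from cancer-associated fibroblasts (CAFs), and the labels name no group without vesicles. There were 2 samples immunoprecipitated with an antibody against 5-methylcytosine (m5C) and 2 input samples, which gave 1 peak list per replicate number. The labels do not state whether replicates were grown as separate cultures, so differences between the lists may be technical. The lists hold no read counts or expression levels, so depth is unknown and the cell line could not be checked against its marker genes.

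5-methylcytosine is a methylated base of RNA, placed on messenger RNA mainly by enzymes of the NSUN family and bound by proteins such as ALYREF and YBX1. In MeRIP-seq, RNA fragments bound by the antibody are sequenced beside input RNA, and a peak is a stretch where bound fragments pile up. Multicopy families hold stretches of the same sequence several times, and a sequenced fragment from such a stretch can align to more than one copy. How fragments of this kind were placed is not given in the sources used here, so the level of any one copy is uncertain. Peaks carry no gene names in the deposited lists, and an hg19 annotation was not used. The windows therefore carry the gene names, and whether a peak lies in an exon, intron or UTR is not analysed here.

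RefSeq sequences just before annotated transcription starts, which the choice of windows did not use, were compared between family members. They show likeness at those starts only, and the stretches that hold the peaks were not compared. The upstream sequences were read on GRCh38.p14, and no position was converted between builds. The 250 bases before the start of PRR20A (plus strand, chr13:57140668-57140917 in GRCh38.p14) are shown because PRR20B, PRR20C, PRR20D and PRR20E have the same letters, so none is in capitals.
PRR20A: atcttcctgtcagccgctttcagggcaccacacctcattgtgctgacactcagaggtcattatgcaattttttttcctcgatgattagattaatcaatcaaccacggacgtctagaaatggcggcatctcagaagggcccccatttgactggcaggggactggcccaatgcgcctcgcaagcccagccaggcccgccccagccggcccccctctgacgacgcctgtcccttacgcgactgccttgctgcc
Over the whole 300 bases of each table entry, the 4 neighbours matched PRR20A at 300 of 300 positions. PRR20G, a family member on chromosome 3, matched at 216 positions after alignment with gaps.

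For NBPF10 the closest entry among the other NBPF genes was 1 of the starts listed for NBPF14. Moved by 35 bases against each other without gaps, the entries matched at 264 of 265 positions. The other 12 NBPF entries, a second NBPF14 start among them, matched NBPF10 at only 158 to 179 of 300 bases after alignment with gaps. The 215 bases before both starts are shown to place the difference, which is in capitals (both minus strand in GRCh38.p14, chr1:146144805-146145019 for NBPF10 and chr1:148595753-148595967 for NBPF14).
NBPF10: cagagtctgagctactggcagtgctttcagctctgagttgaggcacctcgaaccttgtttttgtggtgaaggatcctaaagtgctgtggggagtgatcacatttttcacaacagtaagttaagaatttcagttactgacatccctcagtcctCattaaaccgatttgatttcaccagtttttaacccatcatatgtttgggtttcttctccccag
NBPF14: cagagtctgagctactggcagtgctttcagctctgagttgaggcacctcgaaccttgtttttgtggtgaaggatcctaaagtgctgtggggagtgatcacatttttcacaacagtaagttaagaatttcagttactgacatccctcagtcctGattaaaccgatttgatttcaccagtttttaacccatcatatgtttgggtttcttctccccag
The substitution is C153G, counted from 1 at the first base printed, with the NBPF10 base first. The NBPF10 entry of that build lies on the minus strand and the hg19 window on the plus strand, and whether both are the same locus was not analysed here. The promoter table used here matched 2 of the 4 families by symbol, and TCEB3C, C4A and C4B are named only.

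The first question was how many peaks each family held in each replicate and whether the lists met. The TCEB3C window held 4 peaks in each list, the PRR20 window 4 in replicate 1 and 2 in replicate 2, and NBPF10 6 and 1. C4A held 2 and 3 peaks, and C4B 2 and 1. Of the replicate 1 members, 5 of 18 (27.8%) shared at least 1 bp with a same-strand peak of replicate 2, against 13.6% of that whole list. Of the replicate 2 members, 5 of 11 (45.5%) overlapped, against 7.49% of that list. Since the windows were chosen on these positions, nothing is read from those shares. The overlaps were 3 in TCEB3C, 1 in C4A and 1 in C4B, and in the PRR20 and NBPF10 windows the lists did not meet at all.

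Peaks of the same width recurred within the windows. A same-strand peak of equal width within 100 kb in the same list was present for 16 of the 18 replicate 1 members (88.9%), against 2.49% of all replicate 1 peaks. In replicate 2 this held for 4 of 11 members (36.4%), against 0.853% of the list. The windows were chosen for such repeats. In the whole of replicate 1 there were 7 series of 3 or more such peaks, and 3 of them were the TCEB3C, PRR20 and NBPF10 series. The NBPF10 series, with 5 peaks, was the longest of the 7. Replicate 2 held 1 such series, which lay outside the windows.

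**Figure D1:**
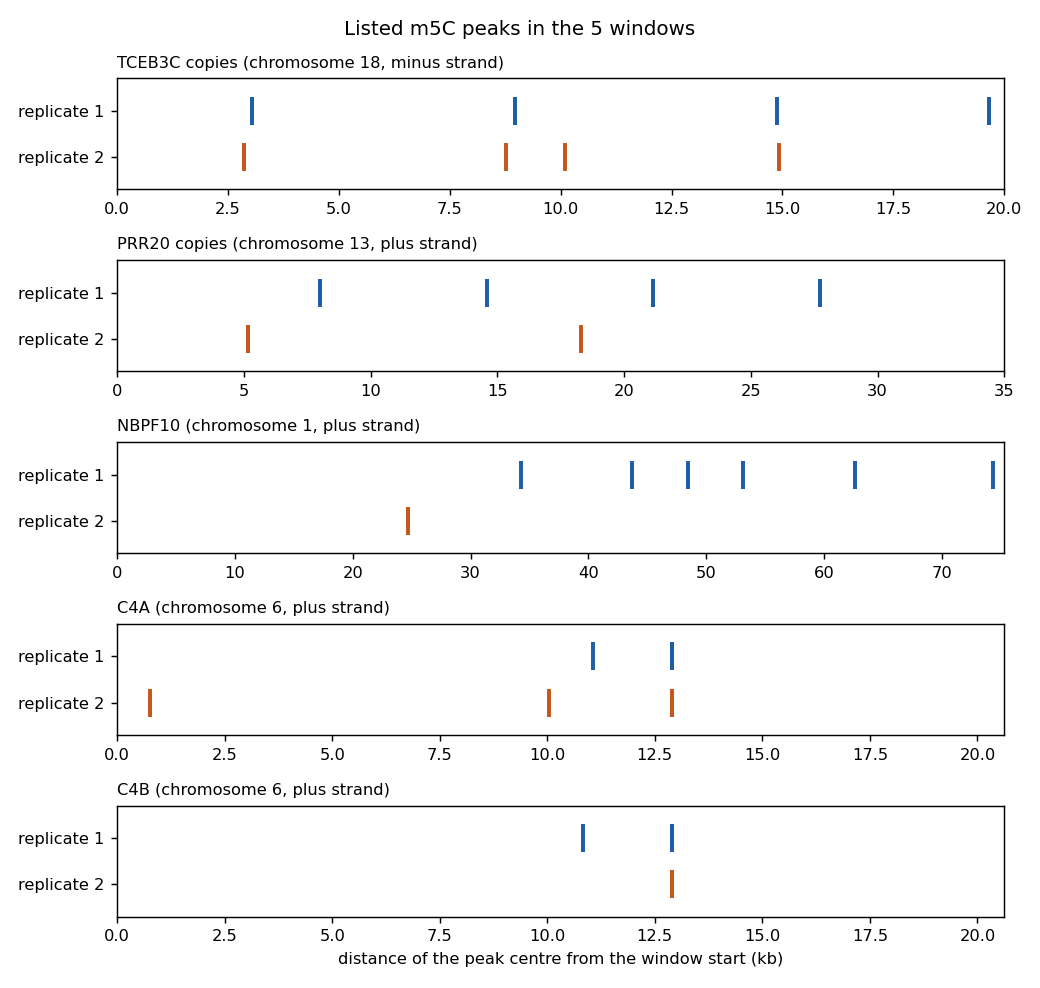
Position of every listed m5C peak in the 5 windows: the x axis gives the distance of the peak centre from the window start in kb, with replicate 1 above and replicate 2 below. Marks show centres and are not drawn to width; the 4 PRR20 peaks, the first 3 TCEB3C peaks and the first 5 NBPF10 peaks of replicate 1 stand at near-regular steps (NBPF10 with steps left out), and a mark of both lists stands at the same place in C4A and in C4B.

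TCEB3C encodes Elongin A3, a relative of Elongin A, the active subunit of the Elongin complex that raises the rate of RNA polymerase II elongation. The gene is known as a run of near-identical copies. In RefSeq on GRCh38.p14 the name TCEB3C is a synonym of ELOA3BP, and both loci of this family in that table, ELOA3BP and ELOA3DP, are annotated as pseudogenes. The hg19 window spans 44540000 to 44560000 of chromosome 18, minus strand, so lower positions are toward the 3′ end of a transcript.

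Replicate 1 held 3 TCEB3C peaks of 356 bp each, the first from 44542866 to 44543221. The second ran from 44548793 to 44549148 and the third from 44554708 to 44555063. The steps between their starts were 5927 and 5915 bp, so these peaks were not evenly spaced to the base, and the steps differed by 12 bp. Only 6 peaks of the whole replicate 1 list had a width of 356 bp. The last peak, from 44559545 to 44559776, measured 232 bp and began 4837 bp after the start of the third, so it had no counterpart at the matching place of the first or the second copy.

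The authors gave each peak a score, which has no stated unit, was not scaled between lists and is used here only within a list. In replicate 1 the first TCEB3C peak scored 2897.76 and each of the other 3 scored 3100, a value shared by 1638 peaks of that list. Scores at or above 3100 were held by 7 of the 18 replicate 1 members (38.9%), against 52.1% of the list, and TCEB3C supplied 3 of the 7.

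Replicate 2 placed a peak across the lower edge of each of the 3 replicate 1 peaks of 356 bp, and 1 edge of each neighbouring pair kept the replicate 1 step. The first (44542761 to 44542960, 200 bp) and the second (44548658 to 44548887, 230 bp) both reached 95 bases into the replicate 1 peak of their copy. The third (44554573 to 44555263, 691 bp) spanned all 356 bp of the replicate 1 peak. The second and the third both began 135 bases before the replicate 1 peak, and the first began 105 bases before it. Thus the ends of the first pair of replicate 2 peaks lay 5927 bp apart and the starts of the later pair 5915 bp apart, the same steps as in replicate 1. The other edges did not keep these steps. The starts of the first pair lay 5897 bp apart and the ends of the later pair 6376 bp apart. None of these replicate 2 widths was equal to another.

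Scores of these replicate 2 peaks were 592.07, 355.99 and 673.98, all above the list median of 281.27. The remaining replicate 2 peak of the window was the widest of the 29 members, at 894 bp (44549641 to 44550534), and scored 2157.29, at the 98.5 percentile of the list. It began 848 bases after the start of the replicate 1 peak of the second copy, and neither list held a peak at that place in the first or the third copy.

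**Figure D2:**
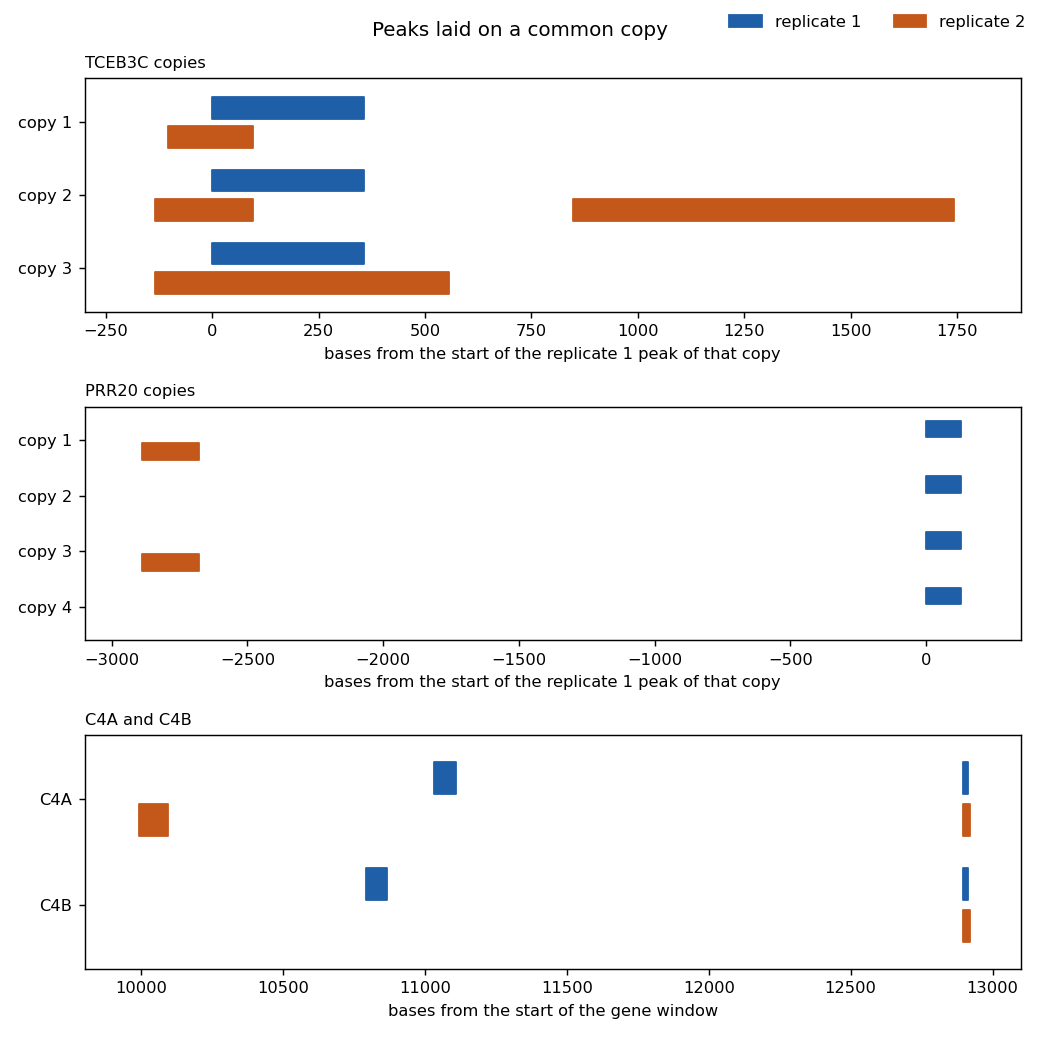
Peaks of TCEB3C, PRR20 and C4 laid on a common copy, with bars to scale on an x axis in bases: from the start of the replicate 1 peak of each copy for TCEB3C and PRR20, and from the window start for C4A and C4B. Replicate 2 bars of TCEB3C reach 95 bases past that start in copies 1 and 2. Those of PRR20, assigned to the nearest replicate 1 peak, begin 2887 bases before its start in copies 1 and 3. The C4 bars at 12895 bases begin together in both genes and both lists. The 232 bp peak of TCEB3C and the 202 bp peak of C4A lie outside the ranges shown.

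PRR20A, PRR20B, PRR20C, PRR20D and PRR20E encode copies of a proline-rich protein and neighbour each other in that order in RefSeq. Their window spans 57710000 to 57745000 of chromosome 13, plus strand. Which listed peak belongs to which of these names was not analysed here, and the copies are numbered by position.

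In replicate 1, 4 PRR20 peaks of 131 bp followed each other, from 57717943 to 57718073, from 57724513 to 57724643, from 57731086 to 57731216 and from 57737657 to 57737787. The steps between their starts were 6570, 6573 and 6571 bp, a range of 3 bp. RefSeq names 5 neighbouring copies, and replicate 1 listed a peak at 4 steps. Scores did not follow the equal widths. The first and the last copy scored 3100 and the second 3064.95, whereas the third scored 77.88, at the 7.32 percentile of the list.

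Replicate 2 held 2 PRR20 peaks of 210 bp, from 57715056 to 57715265 with a score of 533.21 and from 57728199 to 57728408 with 1362.72. They lay 13143 bp apart, exactly as the first and the third replicate 1 peaks did. Each was assigned to the copy of the nearest replicate 1 peak, since copy borders were not known. It began 2887 bases before that peak, and 2677 bases separated them, so no base was shared. The later one also began 3686 bases after the start of the second replicate 1 peak. On this assignment, replicate 2 marked an upstream place in copies 1 and 3, and replicate 1 a downstream place in copies 1 to 4. The third copy, with the lowest replicate 1 score of the family, then had the higher of the 2 replicate 2 scores.

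Peak names in both lists carry a number that rises with position on every chromosome, and most numbers are skipped: they reach 35902 in replicate 1 and 123960 in replicate 2. Exactly 1 number was skipped between each neighbouring pair of the 4 PRR20 peaks of replicate 1, and between its 3 TCEB3C peaks of 356 bp. Over all 3153 successive listed pairs on a chromosome in that list the median was 4 skipped numbers, and 9.99% of pairs skipped exactly 1. Replicate 2 skipped 2 numbers between its PRR20 peaks, against a median of 9 over its list. Numbers rise with position, so pairs that lie close together can skip fewer. The list values were not matched for distance, and nothing is read from the contrast. What a skipped number stands for is not given in the sources used here.

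NBPF10 belongs to the neuroblastoma breakpoint family, whose proteins consist largely of Olduvai (DUF1220) domains repeated in tandem and known for their expansion in the human lineage. RefSeq on GRCh38.p14 lists 14 protein-coding NBPF genes. The hg19 window spans 145293371 to 145368684 of chromosome 1, plus strand.

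In replicate 1, NBPF10 held 5 peaks of 34 bp, with starts at 145327632, 145337068, 145341788, 145346512 and 145355976. Successive starts were 9436, 4720, 4724 and 9464 bp apart. Taking the shortest as a step, the peaks stood at steps 0, 2, 3, 4 and 6 of a run with a mean step of 4724 bp. None was more than 16 bp from that spacing. The mean step was set by the first and the last peak, which therefore lie on it by construction. Steps 1 and 5 had no listed peak of that list and strand. No peak number was skipped across step 1, and 1 was skipped across step 5. A sixth peak of 109 bp (145367714 to 145367822) lay 8.48 steps from the first peak, off the run.

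**Figure D3:**
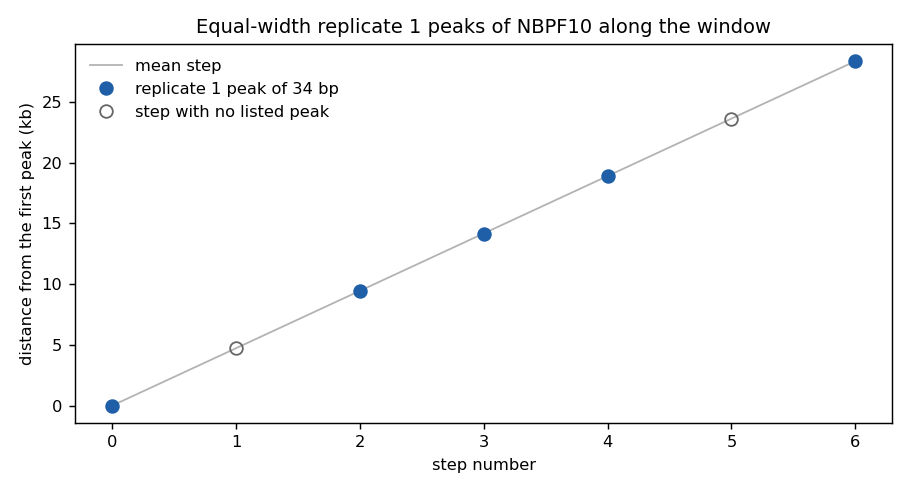
Distance of each 34 bp replicate 1 peak of NBPF10 from the first one, in kb, against its step number; the line is the mean step of 4724 bp. The 5 peaks (filled) lie on or near the line at steps 0, 2, 3, 4 and 6, the first and the last by construction. Open circles mark steps 1 and 5, where no peak was listed.

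The NBPF10 scores of replicate 1, in order of position, were 818.47, 1522.12, 1000.42, 969.33 and 417.3 for the 34 bp peaks and 1349.02 for the 109 bp peak. All 6 lay below the list median of 3100, at the 18.2 to 36.0 percentile of the list. Among the equal-width peaks the highest stood at step 2 and the lowest at step 6. In replicate 2 the window held a single peak of 10 bp (145318054 to 145318063) with a score of 474.79. It began 9578 bp before the first replicate 1 peak, which is 2.03 mean steps. Its start lay farther from a whole step than that of any 34 bp peak, so it was not on the run.

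C4A and C4B encode complement component C4, which is cleaved when the classical or lectin pathway is activated and then binds covalently to nearby surfaces as part of the C3 convertase. The genes lie in the class III region of the MHC, in a module known to vary in copy number between genomes. Both windows are on chromosome 6, plus strand, spanning 31949834 to 31970457 for C4A and 31982572 to 32003195 for C4B, and they start 32738 bp apart.

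The repeat listed by both replicates stood 12895 bases after the start of each window. In replicate 1 it was a peak of 18 bp, from 31962729 to 31962746 in C4A and from 31995467 to 31995484 in C4B. In replicate 2 a peak of 24 bp began on the same base in each gene and ended 6 bases later, at 31962752 and 31995490. These peaks were short, among the 7 of 18 replicate 1 members and 3 of 11 replicate 2 members under 50 bp. All 4 scored 3100. In replicate 2 that value was reached or passed by 0.679% of the list, and these were the 2 of its 11 members that reached it. Of the 5 overlaps between the lists in these families, these 2 shared an edge, against 52.2% of all 435 overlapping pairs, and the 3 in TCEB3C did not.

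Replicate 1 held another C4 pair, of 75 bp each, from 31960867 to 31960941 in C4A and from 31993363 to 31993437 in C4B. Both scored 558.08, a value held by 10 peaks of that list. This was the single pair with the same score other than 3100 among the 66 equal-width pairs of replicate 1 (1.52%), and among 26 such pairs of replicate 2 there was none. The 75 bp peaks lay 32496 bp apart, 242 bp less than the windows. They began 11033 bases into the C4A window and 10791 bases into the C4B window, so they stood 1862 and 2104 bp before the 18 bp peak of their gene.

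In replicate 2 the genes differed in what else was listed. C4A held a peak of 202 bp (31950495 to 31950696, score 160.23) that began 661 bases into the window, and a peak of 103 bp (31959824 to 31959926, score 158.94) that began 9990 bases into it. Both scores were below the list median of 281.27. No peak was listed at the matching places of C4B, where the 24 bp peak was the single replicate 2 entry. Replicate 1 listed neither position in either gene, so this difference between C4A and C4B was not repeated.

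Just outside the windows the C4 module showed a further repeat in replicate 1. A peak of 117 bp (31975046 to 31975162) scored 43.42 and lay 4589 bp beyond the C4A window, and a peak of 122 bp (32007782 to 32007903) scored 3100 and lay 4587 bp beyond the C4B window. Their starts were 32736 bp and their ends 32741 bp apart, close to the spacing of the windows but not to the base. Replicate 2 listed a peak of 200 bp (32006093 to 32006292, score 3100) beyond C4B and none within 5 kb beyond C4A.

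**Figure D4:**
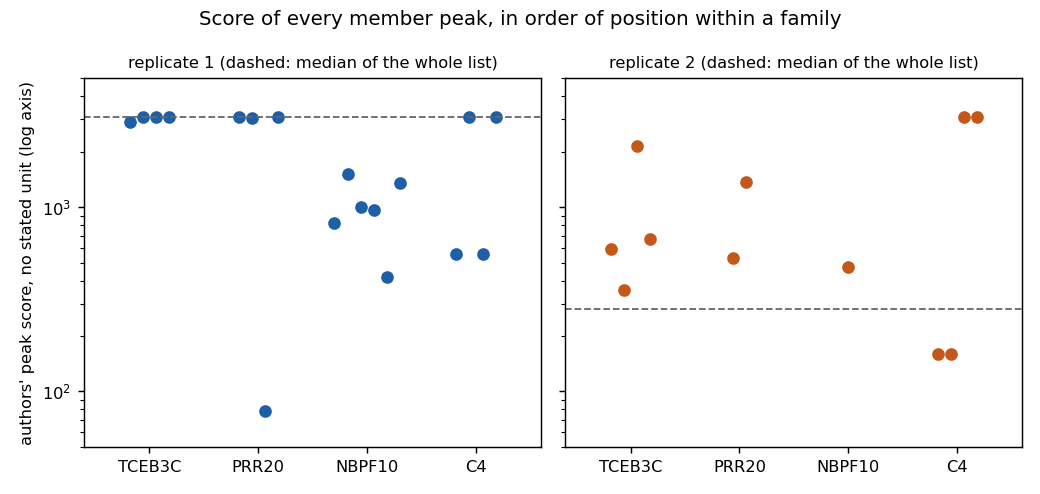
The authors' score of each of the 29 member peaks on a log axis, by family and in order of position, with replicate 1 on the left and replicate 2 on the right and the median of each whole list as a dashed line. In replicate 1 the dashed line is at 3100, a value that 0.535% of that list exceeds, and 7 of 18 members lie on it; in replicate 2 it is at 281.27. The third PRR20 copy has the lowest score, 77.88.

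Across the families, the median score of the members was 2209.94 in replicate 1. No member exceeded the list median of 3100 there, but only 17 peaks of the list (0.535%) did, so this count says nothing about the members. In replicate 2 the median was 592.07, and 9 of the 11 members lay above the list median, as 50% of the list did. The exceptions were the C4A peaks of 202 and 103 bp. The counts above the median are not comparable between the lists. Widths ranged from 10 to 894 bp. The median width was 92 bp for the replicate 1 members and 167 bp for their list, and 202 and 141 bp in replicate 2. Equal-width peaks had the same score within each C4 pair, at 558.08 or 3100. The 75 bp peaks, at 558.08, did not lie at matching window offsets. The value 3100 was reached or passed by 52.1% of the replicate 1 list and 0.679% of the replicate 2 list. Equal-width replicate 1 peaks scored from 417.3 to 1522.12 in NBPF10, from 2897.76 to 3100 in TCEB3C and from 77.88 to 3100 in PRR20. Equal widths thus did not always come with equal scores.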

How the data were processed

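Peaks of m5C MeRIP-seq were deposited as 1 list per replicate, which the labels tie to the immunoprecipitated sample and the input of that number. Per the submitters' processing notes, reads were trimmed with cutadapt 1.9.3 and the build is hg19. Peak names begin with MACS, per the deposited files. The aligner, thresholds and treatment of reads with several alignments are, in the sources used here, not given. They could change which copies are listed, which was not tested. The score of each peak is the authors' deposited value, of unstated scale.

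Positions were read as 0-based starts and are printed 1-based. Peaks overlapping a window by 1 bp on its strand were kept, with Python 3.11.15, pandas 2.3.3 and biopython 1.88; overlaps were checked against bedtools 2.31.1 and tested on simulated data. Percentiles are mid-ranks within a list. Every peak in the windows is named. The members and lists were chosen with earlier results of these data known, and no test was run. Gene lists of the pathways need an hg19 annotation and were not analysed. No column was left unmatched.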

Additional observations from a re-analysis of the deposited data

How the results depend on the processing

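Of the 29 member peaks, 19 measured 50 bp or more and 16 scored at or above the median of their list. Counting 1 list alone gave 11 to 18. Windows widened by 5 kb gave 32, and counting either strand left 29. The 10 members that overlapped the other list became 6 with a 50% reciprocal overlap, 6 among peaks of 50 bp or more, and 0 with both ends on the same base. The count was 8 among peaks at or above the list median, and stayed 10 when copies were laid on each other.

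Offsets shared to the base by several equal-width pairs, or equal to the C4 window spacing, covered 8 members (PRR20 and C4). With 5 bp of tolerance the count was 13, with 1 bp shared after moving by the offset 21 (TCEB3C, PRR20 and NBPF10 were aligned on their equal-width replicate 1 peaks, which then match by construction), and among peaks of 50 bp or more 4. In each list alone it was 2, since the PRR20 offset then occurred a single time. Alternatives chosen after seeing the data gave 17 with 15 bp of tolerance and 20 for equal width at any distance within 100 kb. The counts thus depend on the tolerance. Steps between equal-width replicate 1 peaks ranged over 3 bp in PRR20 and 12 bp in TCEB3C. The 75 bp C4 peaks missed the window spacing by 242 bp.

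As percentiles of their list, the median member scores stood at 41.3 in replicate 1 and 77.0 in replicate 2; with peaks of 50 bp or more the medians were 3064.95 and 562.64. No paired analysis was possible because each peak list combines the samples of 1 replicate number and no test was run. Depth per peak is unknown.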
